A study of Homo sapiens with 12 samples.

Results

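Lysosome and autophagy transcripts were followed in CAMA-1, a long-established line of human mammary carcinoma cells positive for the oestrogen receptor (ER), during treatment with an inhibitor of CDK4 and CDK6 and a degrader of ER. The genes were 46 named lysosomal and autophagy genes, picked by symbol out of the 60612 named rows of the count table: 7 lysosomal membrane proteins, 7 lysosomal proteases, 10 glycosidases and sulfatases, 7 lipid hydrolases and lipid transfer proteins, 6 subunits of the vacuolar proton pump (V-ATPase), 7 autophagy factors and 2 transcription factors. After a filter on low counts, 43 of the 46 were among the 11803 genes tested, and the other 3, MCOLN1, CLN3 and GABARAP, are given by their counts. Wild-type CAMA-1 cells received the vehicle DMSO, abemaciclib at 100 nM, fulvestrant at 5 nM, or abemaciclib together with fulvestrant, and each of the 4 treatments was measured in 3 biological replicates by 3′ RNA sequencing. Treatment lasted 5 days, the labels do not restate the doses used in the combination, and the libraries are of a single cell line. The comparisons asked how each drug alone and both together changed these transcripts, what each drug added to the other, and whether abemaciclib acted alike without and with fulvestrant.

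Lysosomes are acidic organelles in which hydrolases break down proteins, glycans, lipids and nucleic acids that arrive by endocytosis or by autophagy, the process that wraps cytoplasm in a double membrane and delivers it for digestion. The V-ATPase pumps protons into the lumen, the membrane glycoproteins shield the bilayer, and most soluble hydrolases are sorted from the Golgi by mannose 6-phosphate receptors. TFEB and TFE3, basic helix-loop-helix factors that are held in the cytoplasm when the kinase complex mTORC1 is active, bind an E-box with the core CACGTG in the promoters of many lysosomal genes. TFEB and TFE3 are regulated chiefly by phosphorylation and location, so their transcript levels are not a measure of their activity.

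Total counts ranged from 3299119 to 5164667 per library, so that 3 counts, taken as the floor, corresponded to a normalised read count (CPM, from library sizes scaled by TMM) of 0.570 to 0.890. All 7 luminal epithelial markers were present, at 76.3 to 4316.5 CPM. Of 13 markers of other cell types, COL1A1 alone reached 10 counts in any library; 5 were at 0 throughout and the rest never exceeded 7 counts. COL1A1 was at 14.2 to 18.4 CPM in DMSO, 19.2 to 25.3 with abemaciclib, 19.8 to 25.9 with fulvestrant and 15.9 to 21.9 with both, and its part in the results was not tested. Fulvestrant replicate 3 stood apart from the other fulvestrant libraries, and values that turn on it are given below with and without it. The share of counts from the mitochondrial genome was 12.0 to 12.5% in DMSO, 17.4 to 18.6% with abemaciclib, 17.2 to 20.6% with fulvestrant and 15.6 to 19.2% with both, so it moved with treatment as the genes below did. Its part in the results was not tested. Leaving those transcripts out hardly changed the scaling (median shifts over all genes of -0.01 to 0.00), so that run cannot speak to it. In that run all 123 member calls described below stayed past the threshold. In bulk libraries, fewer cells expressing a gene and less of its RNA per cell cannot be told apart.

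Promoters of these genes were examined for the E-box first. Of the 46 genes, 36 had an entry among RefSeq promoters (GRCh38.p14; 300 bases, from 250 before to 50 after the start site). The letters CACGTG, which read the same on both strands, were found in 9 of the 36 genes (LAMP1, CD63, MCOLN1, CLN3, CTSA, CTSD, GAA, NEU1 and ATP6V0D1), and in 7.26% of all 35116 promoters, or 8.77% of 27305 genes. The longer palindrome TCACGTGA, which contains CACGTG, was found in 6 of the 36 (LAMP1, MCOLN1, CLN3, CTSA, GAA and ATP6V0D1) and in 0.98% of all promoters, or 1.18% of genes. A match describes these letters in this window and is not a measured binding site. The stretches that follow are shown because they hold the motif in genes whose values are given below. Each lies upstream of the RefSeq start site, avoids every exon annotated in GENCODE v44, is written 5′ to 3′ on the strand of the gene in lower case, and has CACGTG in capitals. CD63, CLN3 and CTSA, which also hold the motif, are not shown. Outside exons the CD63 stretch lacked CACGTG, and too few bases were left for CLN3 and CTSA.
LAMP1 (chr13:113297039-113297238, plus strand): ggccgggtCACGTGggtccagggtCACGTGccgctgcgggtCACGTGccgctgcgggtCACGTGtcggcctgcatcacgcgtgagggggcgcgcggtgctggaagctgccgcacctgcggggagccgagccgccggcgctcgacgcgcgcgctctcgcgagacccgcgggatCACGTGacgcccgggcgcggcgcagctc
MCOLN1 (chr19:7522494-7522623, plus strand): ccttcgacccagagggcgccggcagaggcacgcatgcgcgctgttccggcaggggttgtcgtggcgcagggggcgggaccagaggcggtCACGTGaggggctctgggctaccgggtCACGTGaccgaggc
CTSD (chr11:1763965-1764057, minus strand): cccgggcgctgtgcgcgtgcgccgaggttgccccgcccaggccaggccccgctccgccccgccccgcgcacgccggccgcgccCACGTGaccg
GAA (chr17:80101451-80101532, plus strand): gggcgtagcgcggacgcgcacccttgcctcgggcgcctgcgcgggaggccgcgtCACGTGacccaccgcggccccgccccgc
NEU1 (chr6:31862906-31862951, minus strand): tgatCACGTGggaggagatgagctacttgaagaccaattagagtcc
ATP6V0D1 (chr16:67481182-67481287, minus strand): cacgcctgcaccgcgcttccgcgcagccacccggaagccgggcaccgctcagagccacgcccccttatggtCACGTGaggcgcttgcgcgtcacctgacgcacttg

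The LAMP1 stretch held 5 copies of CACGTG, and its 300-base promoter held 6, counting 1 that spans the start site. The GAA and MCOLN1 promoters held 2 copies each, and those of CTSD, NEU1 and ATP6V0D1 held 1. The 4 tested genes with TCACGTGA did not respond alike: the log2 fold change with fulvestrant was 1.24 for GAA, 0.76 for LAMP1 and 0.57 for ATP6V0D1, and 0.09 for CTSA, which did not pass.

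Each treatment raised many more of the genes than it lowered. Against DMSO, abemaciclib raised 23 of the 43 genes tested (53.5%) and lowered 3, where 20.5% of all 11803 genes rose and 20.7% fell (quasi-likelihood test of edgeR, with p-values adjusted by Benjamini and Hochberg over that whole set and a threshold of 0.05). Fulvestrant raised 26 (60.5%) and lowered 2, against 25.3% and 25.7% of all genes. The combination raised 30 (69.8%) and lowered 2, against 27.7% and 27.5% of all genes. Over all alternative settings the number raised was 18 to 28 with abemaciclib, where DMSO replicate 2 left out gave the lowest count, 24 to 28 with fulvestrant and 27 to 30 with both. The median log2 fold change of the 43 was 0.39 with abemaciclib, 0.48 with fulvestrant and 0.58 with both, while that of all genes tested lay between 0.00 and 0.01. These comparisons use the same DMSO libraries, so their results are not independent of one another. The genes were chosen with earlier results of these data known, and how far that choice raised these shares was not tested.

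By library, the median of the 43 genes relative to the DMSO mean (log2 of CPM plus 0.5) was 0.33 to 0.41 with abemaciclib, 0.42 to 0.53 with fulvestrant and 0.58 in each of the 3 combination libraries, and lay between -0.02 and 0.02 in DMSO. The 4 groups did not overlap in this median. Summed over the genes, the level was 4312.0 to 4736.1 CPM in DMSO, 5904.5 to 6158.4 CPM with abemaciclib, 5756.4 to 6917.8 CPM with fulvestrant and 6236.2 to 6591.9 CPM with both. On that sum every treated library was above DMSO and every combination library above every abemaciclib library, while the fulvestrant libraries spanned both.

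**Figure D1:**
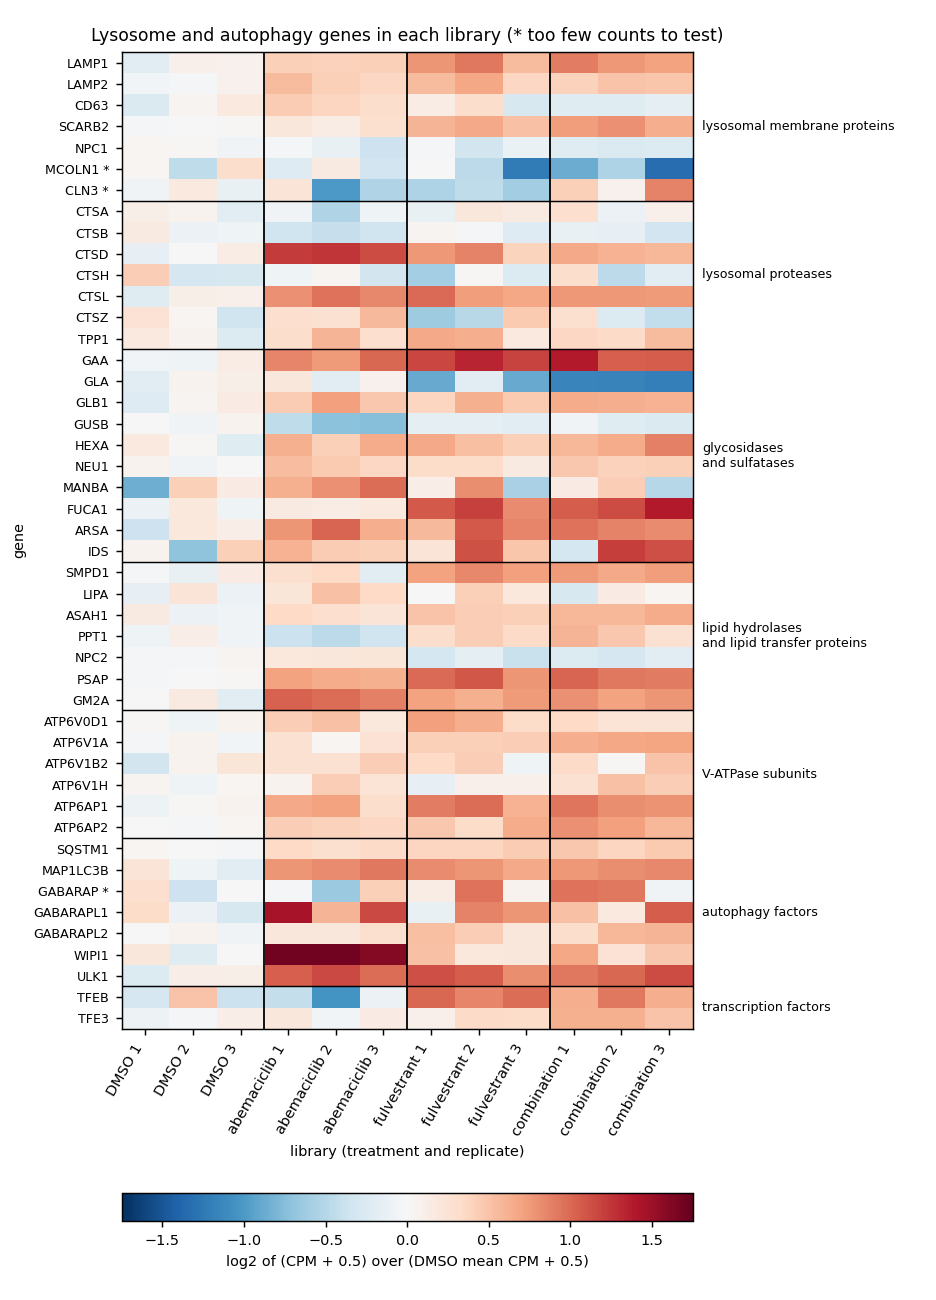
Each row is 1 of the 46 genes, grouped by role, and each column is 1 of the 12 libraries; colour gives log2 of CPM plus 0.5 relative to the DMSO mean, red above and blue below, and asterisks mark the 3 genes with too few counts to test. Rows such as LAMP1, CTSL, PSAP and ULK1 are red in all 9 treated libraries, WIPI1 and CTSD are darkest with abemaciclib alone, FUCA1 is near white and TFEB blue with abemaciclib while both are red with fulvestrant and the combination, and GLA is blue in all combination libraries.

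Lysosomal membrane proteins came first by role. Each role holds few genes, and its counts are to be read against the shares of all genes. Those raised and lowered were 20.5% and 20.7% with abemaciclib, 25.3% and 25.7% with fulvestrant, and 27.7% and 27.5% with both. Of the 5 membrane proteins tested, abemaciclib raised 4, fulvestrant 3 and the combination 3, and none was lowered against DMSO. LAMP1, a heavily glycosylated protein that lines the lysosomal membrane, had 536.9, 652.0 and 644.7 CPM in the DMSO libraries, 814.5, 808.4 and 817.4 with abemaciclib, 1045.4, 1162.6 and 896.1 with fulvestrant and 1133.4, 1035.7 and 999.6 with both. Every treated library was above every DMSO library, and every fulvestrant and combination library was above every abemaciclib library. On the log2 scale the change of LAMP1 was 0.41 ± 0.09 (SE) with abemaciclib (adjusted p = 4.7e-04), 0.76 ± 0.09 with fulvestrant (4.9e-08) and 0.79 ± 0.09 with both (2.1e-08).

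LAMP2, which also serves as the receptor of chaperone-mediated autophagy, rose by about the same amount in each treatment, with log2 fold changes of 0.45 ± 0.09, 0.53 ± 0.09 and 0.46 ± 0.09. SCARB2, the receptor that carries glucocerebrosidase to the lysosome, went from 194.2 ± 3.01 CPM in DMSO (SD, n = 3) to 223.4 ± 11.6 with abemaciclib, 292.7 ± 14.3 with fulvestrant and 321.1 ± 19.4 with both. Its call with abemaciclib (0.20 ± 0.08, adjusted p = 0.0374) was lost under DESeq2 (0.19, adjusted p = 0.0661), under scaling to library totals (0.14), without the filter on low counts (0.22), and without any 1 DMSO library, abemaciclib replicate 1 or abemaciclib replicate 3 (0.17 to 0.22). Its calls with fulvestrant (0.59 ± 0.08) and the combination (0.72 ± 0.08) held under every alternative.

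CD63, a tetraspanin of late endosomes and of the vesicles they release, had 799.3, 980.4 and 1065.8 CPM in DMSO, 1292.1, 1228.9 and 1172.4 with abemaciclib, 1036.2, 1173.1 and 778.5 with fulvestrant and 816.3, 820.2 and 850.9 with both. The abemaciclib libraries were above the rest except that they met the second fulvestrant library at its upper end, and the fulvestrant libraries reached both below and above the DMSO libraries, with replicate 3 the lowest. Against DMSO the log2 fold change was 0.38 ± 0.13 with abemaciclib (adjusted p = 0.0329), 0.07 ± 0.13 with fulvestrant (0.687) and -0.19 ± 0.13 with both (0.222). The call with abemaciclib was lost without DMSO replicate 1 or 2, abemaciclib replicate 1 or 2, or combination replicate 1 (0.27 to 0.40). Without fulvestrant replicate 3, CD63 was called higher with fulvestrant (0.22, adjusted p = 0.0341) and lower with the combination (-0.20, adjusted p = 0.031). It was also called lower with the combination without DMSO replicate 1 (-0.30) or with only the compared groups fitted (-0.20). NPC1, which moves cholesterol out of the lysosome, passed in no comparison with DMSO, at -0.16, -0.14 and -0.24. The calcium channel MCOLN1 had 2 to 11 counts per library and CLN3, a membrane protein mutated in Batten disease, had 1 to 11. In both, same-strand exons of other annotations cover part of the last 300 exonic bases (28.3% for MCOLN1 and 78.3% for CLN3). Here and below, these bases are pooled over all protein-coding transcripts of a gene in GENCODE v44, so they can exceed 300. Which of the annotated ends gave reads was not examined, and the study counted on an earlier GENCODE release.

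Among the 7 lysosomal proteases, abemaciclib raised 3 and lowered 1, and fulvestrant and the combination each raised the same 3 genes (CTSD, CTSL and TPP1). CTSD encodes cathepsin D, an aspartic protease that is long known as an oestrogen-induced protein of breast cancer cells. It had 158.8, 175.6 and 191.2 CPM in DMSO, 410.2, 416.5 and 388.1 with abemaciclib, 297.5, 320.7 and 229.7 with fulvestrant and 276.9, 267.6 and 262.1 with both. No treated library overlapped DMSO, and the 3 abemaciclib libraries were above all others. Exons of another annotation on the same strand cover 16.1% of the last 300 exonic bases of its transcripts. CTSD thus changed by 1.21 ± 0.10 (log2) with abemaciclib (adjusted p = 1.4e-10), 0.69 ± 0.10 with fulvestrant (1.4e-06) and 0.61 ± 0.10 with both (5.6e-06).

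CTSL, the cysteine protease cathepsin L, rose from 17.5 to 22.0 CPM in DMSO to 32.8 to 41.0 CPM over the 9 treated libraries, without overlap, or by 0.86 ± 0.13, 0.80 ± 0.13 and 0.75 ± 0.13 on the log2 scale. CTSB, cathepsin B, went the other way with abemaciclib, from 100.3, 84.0 and 85.2 CPM to 70.2, 68.0 and 70.7 (-0.36 ± 0.10, adjusted p = 0.00468), with no overlap. With fulvestrant and with both, CTSB had values of -0.06 and -0.20 that did not pass.

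TPP1, a peptidase that trims tripeptides from protein ends, had log2 fold changes of 0.43 ± 0.17, 0.52 ± 0.17 and 0.44 ± 0.17, near the threshold each time, and 17.7% of its last 300 exonic bases are under same-strand exons of another annotation. With abemaciclib its call was lost under DESeq2 (0.42, adjusted p = 0.0854), under library totals (0.36), and without DMSO replicate 2 or 3 or abemaciclib replicate 1 or 2 (0.31 to 0.48). With fulvestrant it was lost without DMSO replicate 3 (0.41) or fulvestrant replicate 1 (0.44), and with both under DESeq2 (0.42) or without DMSO replicate 3 (0.33) or combination replicate 3 (0.36). CTSA, CTSH and CTSZ did not pass against DMSO. CTSZ, cathepsin Z, was uneven between replicates: fulvestrant replicate 3 had 59.3 CPM where the other fulvestrant libraries had 27.9 and 30.5, and without replicate 3 it was lower with fulvestrant (-0.55). With only the compared groups fitted, CTSZ was called higher with abemaciclib (0.41, adjusted p = 0.0115). Opposite-strand exons cover 31.9% of the last 300 bases of CTSA (PLTP) and 25.5% of those of CTSZ (NELFCD), and since the strand setting of the counting is not given in the sources used here, reads of such pairs may not be told apart.

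Of the 10 glycosidases and sulfatases, abemaciclib raised 5 and lowered 1, fulvestrant raised 6 and lowered 1, and the combination raised 7 and lowered 1. GAA, acid alpha-glucosidase, the enzyme that degrades lysosomal glycogen, had 30.0, 29.3 and 33.9 CPM in DMSO, 56.2, 52.1 and 62.7 with abemaciclib, 70.4, 79.0 and 71.1 with fulvestrant and 81.6, 64.5 and 65.4 with both. The treated groups did not overlap DMSO, and fulvestrant and combination libraries all lay above the abemaciclib libraries. Its log2 fold changes were 0.87 ± 0.12 (adjusted p = 1.2e-06), 1.24 ± 0.12 (1.1e-09) and 1.18 ± 0.12 (2.0e-09).

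FUCA1, which removes fucose from glycans, separated the drugs. It had 11.6, 14.3 and 11.8 CPM in DMSO, 14.0, 13.7 and 14.1 with abemaciclib, 26.9, 29.3 and 22.6 with fulvestrant and 26.7, 28.1 and 33.4 with both. DMSO and abemaciclib libraries overlapped, and every library with fulvestrant was above all of them. FUCA1 had a log2 fold change of 0.14 ± 0.17 with abemaciclib (adjusted p = 0.543), 1.05 ± 0.16 with fulvestrant (4.0e-06) and 1.22 ± 0.16 with both (1.8e-07).

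ARSA, the sulfatase of sulfatide breakdown, HEXA, a subunit of beta-hexosaminidase, GLB1, the lysosomal beta-galactosidase, and NEU1, a sialidase, rose in all 3 comparisons with DMSO, with log2 fold changes from 0.27 (NEU1 with fulvestrant) to 0.88 (ARSA with both). The NEU1 call with fulvestrant was lost under library totals (0.21) and without DMSO replicate 2, fulvestrant replicate 1 or fulvestrant replicate 2 (0.24 to 0.25). For HEXA the last 300 exonic bases lie partly under same-strand exons, and 26.4% of them under opposite-strand exons, of other annotations. GLB1 went from 65.4 ± 8.30 CPM in DMSO to 95.9 ± 10.1, 92.1 ± 7.88 and 101.5 ± 1.46.

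GUSB, beta-glucuronidase, fell with abemaciclib alone. It had 71.8, 68.6 and 74.4 CPM in DMSO, 52.6, 43.5 and 42.7 with abemaciclib, 63.7, 64.3 and 63.1 with fulvestrant and 68.6, 61.6 and 60.2 with both. The abemaciclib libraries were below all others, and the fulvestrant and combination libraries lay below DMSO or at its lower end. Its log2 fold change was -0.62 ± 0.10 with abemaciclib (adjusted p = 1.9e-05), -0.17 ± 0.10 with fulvestrant (0.17) and -0.18 ± 0.10 with both (0.139).

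GLA (chrX:101393273-101408012, minus strand), alpha-galactosidase A, the enzyme lacking in Fabry disease, was lowered by the treatments that held fulvestrant. It had 9.79, 11.8 and 12.2 CPM in DMSO, 13.0, 9.93 and 11.9 with abemaciclib, 5.93, 9.87 and 5.93 with fulvestrant and 4.81, 4.76 and 4.66 with both. The combination libraries lay below every other library, while fulvestrant replicate 2 was within the DMSO range. For GLA the log2 fold change was 0.03 ± 0.21 with abemaciclib (adjusted p = 0.915), -0.67 ± 0.23 with fulvestrant (0.0171) and -1.26 ± 0.24 with both (6.6e-05). The call with fulvestrant was lost without DMSO replicate 2 (-0.63) or 3 (-0.60), or fulvestrant replicate 1 (-0.54) or 3 (-0.54).

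MANBA, beta-mannosidase, and IDS, iduronate sulfatase, varied widely between replicates. MANBA ranged from 9.20 to 23.0 CPM within DMSO and did not pass in any comparison with DMSO in the main fit. With only the compared groups fitted, it was called higher with abemaciclib (0.76, adjusted p = 0.0166). IDS, at 9 to 38 counts per library and with 25.2% of its last 300 exonic bases under same-strand exons of other annotations, was called with the combination (0.96 ± 0.39, adjusted p = 0.0381), a call lost under DESeq2 (0.93), with the other groups left out of the fit (0.96), and without DMSO replicate 1 or 2 or combination replicate 2 or 3 (0.63 to 1.00).

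Of the 7 lipid hydrolases and lipid transfer proteins, abemaciclib raised 3 and lowered 1, and fulvestrant and the combination each raised 5 and lowered 1. PSAP, the precursor of the saposins that present sphingolipids to their hydrolases, had 388.2, 392.6 and 399.6 CPM in DMSO, 639.9, 620.1 and 605.7 with abemaciclib, 780.5, 835.5 and 670.7 with fulvestrant and 795.4, 744.4 and 742.0 with both. The DMSO libraries lay below the abemaciclib libraries, which lay below the rest. PSAP rose on the log2 scale by 0.66 ± 0.08 (adjusted p = 9.3e-08), 0.95 ± 0.08 (4.7e-11) and 0.95 ± 0.08 (3.7e-11).

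GM2A, the activator protein that lifts ganglioside GM2 to hexosaminidase, was highest with abemaciclib. It had 38.3, 42.6 and 33.3 CPM in DMSO, 78.2, 75.1 and 70.5 with abemaciclib, 62.3, 58.7 and 63.8 with fulvestrant and 66.6, 62.0 and 65.4 with both. No treated library overlapped DMSO, and the log2 fold changes were 0.97 ± 0.11 (adjusted p = 2.4e-08), 0.69 ± 0.11 (4.7e-06) and 0.76 ± 0.11 (7.3e-07).

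PPT1 (chr1:40072710-40097260, minus strand), the thioesterase that removes palmitate from proteins, moved in opposite directions with the single drugs. It had 355.0, 406.5 and 359.0 CPM in DMSO, 286.7, 271.5 and 293.1 with abemaciclib, 463.8, 504.9 and 472.4 with fulvestrant and 562.5, 516.5 and 448.7 with both. The abemaciclib libraries were below and the fulvestrant and combination libraries above all DMSO libraries. Its log2 fold change was -0.40 ± 0.08 with abemaciclib (adjusted p = 3.7e-04), 0.36 ± 0.08 with fulvestrant (6.0e-04) and 0.45 ± 0.08 with both (4.6e-05).

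NPC2, the soluble partner of NPC1 in cholesterol export, had 95.4 ± 2.79 CPM in DMSO (SD, n = 3) and was lower with fulvestrant (78.4 ± 6.74) and with both (80.8 ± 2.78), with no library of either group in the DMSO range. Its log2 fold changes were 0.20 ± 0.09 with abemaciclib (adjusted p = 0.0656), -0.29 ± 0.09 with fulvestrant (0.00829) and -0.24 ± 0.09 with both (0.0214). The first passed without fulvestrant replicate 3 (0.20), under upper-quartile factors (0.22) and with only the compared groups fitted (0.20). The last was lost without the filter on low counts (-0.23), or without DMSO replicate 3, combination replicate 1 or combination replicate 2 (-0.23 to -0.21). SMPD1, acid sphingomyelinase, rose with fulvestrant (0.77 ± 0.17) and with both (0.73 ± 0.17), and had 0.18 ± 0.18 with abemaciclib (adjusted p = 0.434). ASAH1, acid ceramidase, rose in all 3 comparisons (0.30, 0.46 and 0.61), the first call being lost without DMSO replicate 2 (0.25, adjusted p = 0.0617). LIPA, the lysosomal acid lipase of cholesteryl esters, did not pass against DMSO (0.35, 0.20 and -0.03).

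Of the 6 V-ATPase subunits and accessory proteins, abemaciclib raised 3, fulvestrant 4 and the combination 5, and none was lowered. ATP6AP1, an accessory protein of the membrane sector, had 133.0, 142.9 and 147.8 CPM in DMSO, 222.9, 231.3 and 174.3 with abemaciclib, 264.1, 278.4 and 216.5 with fulvestrant and 269.5, 249.2 and 244.1 with both. All treated libraries were above DMSO, and abemaciclib replicate 3 and fulvestrant replicate 3 were the lowest of their groups. ATP6AP1 rose by 0.57 ± 0.10 (log2; adjusted p = 7.4e-05), 0.84 ± 0.10 (1.7e-07) and 0.85 ± 0.10 (1.2e-07).

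ATP6AP2, the prorenin receptor and a second accessory protein, rose by 0.40 ± 0.09, 0.49 ± 0.09 and 0.70 ± 0.09 on the log2 scale. ATP6V1A, the catalytic subunit that hydrolyses ATP, went from 130.7 ± 5.54 CPM in DMSO to 149.2 ± 12.9 with abemaciclib (0.19, adjusted p = 0.0585), 175.3 ± 1.05 with fulvestrant (0.42, adjusted p = 7.4e-05) and 208.3 ± 3.68 with both (0.67, adjusted p = 4.7e-08). Its value with abemaciclib passed without abemaciclib replicate 2 (0.26) or fulvestrant replicate 3 (0.19). The same value also passed under upper-quartile factors (0.21) and with only the compared groups fitted (0.20). ATP6V0D1, which joins the membrane sector to the cytosolic sector, had 44.7 to 49.0 CPM in DMSO, 53.6 to 67.5 with abemaciclib, 59.0 to 77.8 with fulvestrant and 55.3 to 60.1 with both. Its calls were 0.39 ± 0.11, 0.57 ± 0.11 and 0.28 ± 0.11, of which the first was lost without abemaciclib replicate 2 (0.32) and the last under DESeq2 (0.26), RLE factors (0.26) and library totals (0.27), and without DMSO replicate 1 or 2 or any 1 combination library (0.24 to 0.30). ATP6V1H, a regulatory subunit, passed with the combination (0.41 ± 0.12, adjusted p = 0.00506) and had 0.25 with abemaciclib and 0.02 with fulvestrant, the former passing without abemaciclib replicate 1 (0.35). ATP6V1B2, a nucleotide-binding subunit, did not pass in the main fit (0.31, 0.23 and 0.29). With abemaciclib it passed without DMSO replicate 3 (0.43) or with only the compared groups fitted (0.31). With the combination it passed without DMSO replicate 3 (0.41) or combination replicate 2 (0.42), and with fulvestrant without fulvestrant replicate 3 (0.38).

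Of the 6 autophagy factors tested, abemaciclib raised 5, fulvestrant 4 and the combination 5, and none was lowered. WIPI1, which binds phosphatidylinositol 3-phosphate on forming autophagosomes, had 18.4, 13.7 and 15.9 CPM in DMSO, 52.6, 52.5 and 49.8 with abemaciclib, 23.0, 18.3 and 18.5 with fulvestrant and 26.0, 19.2 and 22.3 with both. The abemaciclib libraries stood far above all others, and fulvestrant overlapped DMSO. WIPI1 had a log2 fold change of 1.71 ± 0.14 with abemaciclib (adjusted p = 2.2e-10), a 3.27-fold rise, 0.34 ± 0.16 with fulvestrant (0.0845) and 0.51 ± 0.16 with both (0.0074). The last call was lost without DMSO replicate 2 (0.40, adjusted p = 0.0627), and without DMSO replicate 1 WIPI1 was also called with fulvestrant (0.44, adjusted p = 0.0434).

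WIPI1 lies at chr17:68420948-68457513 on the minus strand (GENCODE v44, GRCh38), and 64.0% of the last 300 exonic bases of its transcripts are under exons of ARSG, the gene of another lysosomal sulfatase on the opposite strand. ARSG had 4.58 ± 1.17 CPM in DMSO, 11.1 ± 0.758 with abemaciclib, 8.45 ± 1.53 with fulvestrant and 8.00 ± 1.77 with both, so it too was highest with abemaciclib. Whether reads were counted by strand is not given in the sources used here, and how far the counts of WIPI1 and ARSG overlap was not tested.

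ULK1, the kinase that starts autophagosome formation, had 27.9, 35.7 and 35.3 CPM in DMSO, 68.6, 73.9 and 65.4 with abemaciclib, 72.4, 69.1 and 58.3 with fulvestrant and 62.8, 66.8 and 73.6 with both. The 3 treated groups overlapped each other and lay wholly above DMSO. The gene lies at chr12:131894622-131923150 on the plus strand (GENCODE v44, GRCh38). The log2 fold changes were 1.06 ± 0.12 (adjusted p = 3.2e-08), 1.00 ± 0.12 (5.8e-08) and 1.03 ± 0.12 (2.3e-08).

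MAP1LC3B, the LC3 protein that is lipidated onto autophagosome membranes, had 53.1, 42.9 and 39.9 CPM in DMSO, 77.8, 80.8 and 86.4 with abemaciclib, 81.0, 77.8 and 71.8 with fulvestrant and 77.2, 79.8 and 81.7 with both. As for ULK1, the treated groups overlapped each other and none reached DMSO, with log2 fold changes of 0.86 ± 0.10 (adjusted p = 1.8e-07), 0.77 ± 0.11 (6.8e-07) and 0.83 ± 0.10 (1.6e-07). MAP1LC3B2, a near-identical copy between which and MAP1LC3B reads may be split, stayed at 4.09 to 5.18 CPM in the group means and passed in none of these comparisons.

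SQSTM1 (p62), the receptor that ties ubiquitinated cargo to LC3, rose modestly and evenly, from 205.5 to 213.4 CPM in DMSO to 253.6 to 266.7 with abemaciclib, 271.0 to 283.5 with fulvestrant and 271.3 to 289.9 with both (log2 fold changes 0.32, 0.40 and 0.44). Its last exonic bases lie partly under opposite-strand exons of MRNIP. GABARAPL2, a relative of LC3, rose with fulvestrant (0.39 ± 0.10) and with both (0.51 ± 0.10), and had 0.23 ± 0.10 with abemaciclib (adjusted p = 0.0589). The last value passed without fulvestrant replicate 3 or combination replicate 1 (0.23 each), under upper-quartile factors (0.25) and with only the compared groups fitted (0.23). GABARAPL1 had 3 to 4 counts per DMSO library and 7 to 16 with abemaciclib (1.54 ± 0.53, adjusted p = 0.0208), a call lost under DESeq2 (adjusted p = 0.0565) and without DMSO replicate 2 (1.48), DMSO replicate 3 (1.37) or abemaciclib replicate 1 (1.27). GABARAP had 1 to 8 counts per library, and 60.2% of its last 300 exonic bases are under same-strand exons of another annotation.

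Neither transcription factor passed with abemaciclib, whereas every other role held both genes that passed and genes that did not. TFEB (chr6:41683978-41736259, minus strand) had 5.94, 10.6 and 5.58 CPM in DMSO, 5.40, 3.31 and 6.82 with abemaciclib, 13.8 to 15.3 with fulvestrant and 11.8, 14.5 and 11.8 with both. Every library with fulvestrant was above every library without it, and DMSO and abemaciclib libraries overlapped. Its log2 fold change was -0.56 ± 0.28 with abemaciclib (adjusted p = 0.112), 0.96 ± 0.24 with fulvestrant (0.00146) and 0.75 ± 0.24 with both (0.00978). Without DMSO replicate 3, TFEB was called lower with abemaciclib (-0.74, adjusted p = 0.0499) and lost its call with the combination (0.56), which was also lost without combination replicate 2 (0.65).

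TFE3 had 23.7, 24.7 and 27.3 CPM in DMSO, 29.0, 24.3 and 27.8 with abemaciclib, 26.9, 31.9 and 31.7 with fulvestrant and 35.9 to 39.0 with both. The combination libraries were above all others. It passed with both drugs (0.58 ± 0.13, adjusted p = 3.3e-04) and had 0.09 ± 0.13 with abemaciclib (0.597) and 0.25 ± 0.13 with fulvestrant (0.115). Of their relatives, MITF lay between 5.08 and 8.90 CPM in the 12 libraries with no call in any comparison, and TFEC was at 0 counts throughout.

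**Figure D2:**
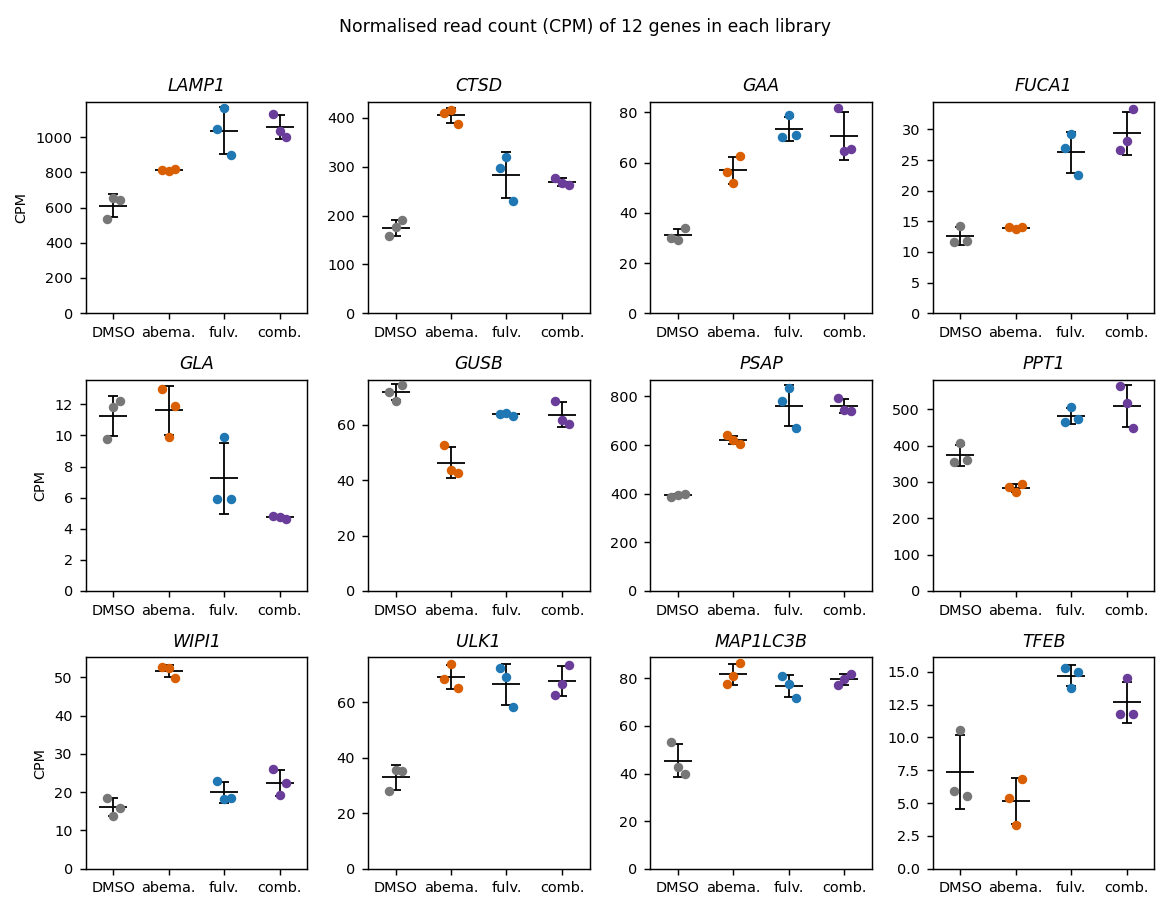
Normalised read count (CPM, linear axis from 0) of 12 genes in each library, by treatment (abema., abemaciclib; fulv., fulvestrant; comb., combination); coloured points are libraries, the horizontal bar is the mean and the whisker 1 SD of 3 libraries. WIPI1 and CTSD are highest with abemaciclib (51.6 and 404.9 CPM on average), FUCA1 and TFEB are high with fulvestrant and the combination, ULK1 and MAP1LC3B overlap among the 3 treated groups and lie above DMSO, and PPT1 falls with abemaciclib and rises with fulvestrant.

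Adding fulvestrant to abemaciclib changed 20 of the 43 genes. For adding abemaciclib to fulvestrant no gene of the 43 passed, near the small share of all genes given below. Compared with abemaciclib alone, the combination was higher for 15 genes and lower for 5, where 15.9% of all genes were higher and 17.7% lower, and the median of the 43 was 0.08. TFEB differed most (1.30 ± 0.26, adjusted p = 2.3e-04), followed by FUCA1 (1.08 ± 0.15, 2.8e-06) and PPT1 (0.84 ± 0.08, 5.8e-09), each with all 3 combination libraries above all 3 abemaciclib libraries. SMPD1 (0.55 ± 0.16), SCARB2 (0.52 ± 0.08), TFE3 (0.49 ± 0.13), ATP6V1A (0.48 ± 0.08), GUSB (0.45 ± 0.10) and LAMP1 (0.38 ± 0.09) were higher too. The 5 lower genes were GLA (-1.29 ± 0.24, adjusted p = 1.1e-04), WIPI1 (-1.20 ± 0.14, 6.6e-08), CTSD (-0.59 ± 0.09, 1.8e-05), CD63 (-0.57 ± 0.13, 0.00388) and NPC2 (-0.44 ± 0.09, 2.3e-04), again without overlap. By role, the lipid hydrolases and transfer proteins held 4 of the 15 higher genes and the proteases none. The calls for GAA (0.19 to 0.30), ATP6AP1 (0.16 to 0.30) and GABARAPL2 (0.23 to 0.27) were lost under DESeq2 and without at least 1 library: abemaciclib replicate 1 or 2 or combination replicate 1 for GAA, abemaciclib replicate 3 or any 1 combination library for ATP6AP1, and abemaciclib replicate 1 or 2 or combination replicate 2 or 3 for GABARAPL2. That for SMPD1 was lost without abemaciclib replicate 3 (0.41). CTSA was also called higher without fulvestrant replicate 3 (0.31) or combination replicate 2 (0.41), and CTSZ lower without fulvestrant replicate 3 (-0.49). With only the compared groups fitted, CTSA was called higher (0.31) and CTSZ (-0.50) and MANBA (-0.75) lower. Under library totals CTSA was called higher too (0.36).

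Compared with fulvestrant alone, the combination gave 0 calls among the 43 by edgeR and 0 by DESeq2, where 0.297% of all genes were higher and 1.63% lower. At an unadjusted p under 0.05 there were 6 of the 43 by edgeR, where 1368 of all 11803 genes were under it, and 7 by DESeq2. The median of the 43 was 0.03. The 95% intervals of the log2 difference show what size of change remained possible: -0.15 to 0.21 for LAMP1, -0.27 to 0.12 for CTSD, -0.28 to 0.16 for GAA, -0.20 to 0.25 for ULK1, -0.15 to 0.26 for MAP1LC3B and -0.16 to 0.15 for PSAP. They were wider for genes with few counts, as for GLA (-1.12 to -0.05), TFEB (-0.67 to 0.24) and GABARAPL1 (-0.94 to 1.16). These intervals are not adjusted for the number of genes. They lay wholly above 0 for ATP6V1A (0.09 to 0.41), ATP6V1H (0.15 to 0.65), ATP6AP2 (0.04 to 0.38) and TFE3 (0.07 to 0.59). For ATP6V0D1 (-0.53 to -0.07), as for GLA, the interval lay wholly below 0. The difference farthest from 0 among V-ATPase subunits was that of ATP6V1H (0.40 ± 0.12, adjusted p = 0.111). Fulvestrant replicate 3 decided 3 of these results: without it CD63 (-0.41, adjusted p = 0.00295) and ATP6V0D1 (-0.41, adjusted p = 0.0211) were lower and ATP6AP2 (0.29, adjusted p = 0.0289) was higher in the combination.

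**Figure D3:**
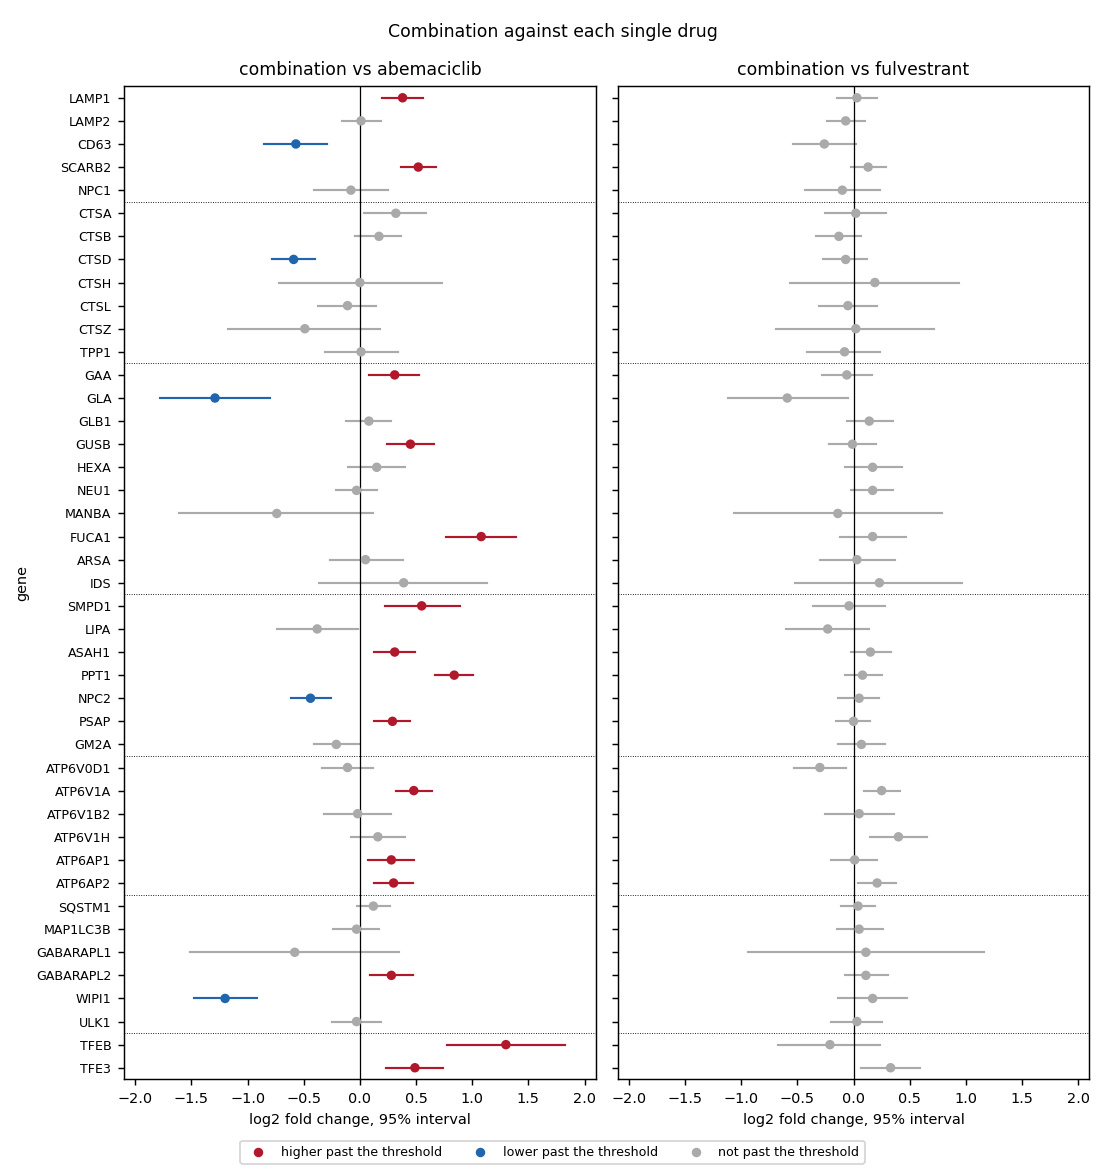
Log2 fold change (horizontal axis) and its 95% interval for the 43 genes tested, ordered by role, in the combination against abemaciclib (left) and against fulvestrant (right); red marks genes that were higher past the threshold, blue those that were lower, and grey the rest. On the left 15 genes are red and 5 blue, with TFEB at 1.30 and GLA at -1.29; on the right all 43 are grey.

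Whether abemaciclib changed these genes alike without and with fulvestrant was tested by the interaction, the log2 change from fulvestrant to the combination minus that from DMSO to abemaciclib. It was negative past the threshold for 15 of the 43 genes and positive for 2, where 11.6% of all genes were negative and 9.49% positive, and its median was -0.38 against -0.01 for all genes tested. The interaction uses the same abemaciclib and DMSO libraries as the first comparison, with opposite sign, so that the calls in the 2 are not independent. The 15 were spread over the roles: 3 of 5 membrane proteins (LAMP1, LAMP2 and CD63), 2 of 7 proteases (CTSD and CTSL), 3 of 10 glycosidases and sulfatases (GAA, GLB1 and ARSA), 2 of 7 lipid genes (PSAP and GM2A), 2 of 6 V-ATPase genes (ATP6V0D1 and ATP6AP1) and 3 of 6 autophagy factors (MAP1LC3B, WIPI1 and ULK1). All 15 had been raised by abemaciclib in the absence of fulvestrant. The 2 positive genes, GUSB and PPT1, had been lowered by it.

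WIPI1 had the most negative interaction (-1.54 ± 0.21, adjusted p = 5.9e-06): abemaciclib changed it by 1.71 without fulvestrant and by 0.17 ± 0.15 with it. For CTSD the interaction was -1.28 ± 0.13 (1.4e-07), from 1.21 without to -0.07 with fulvestrant. For ULK1 (-1.03 ± 0.16) and MAP1LC3B (-0.81 ± 0.15), whose treated groups overlapped, the abemaciclib changes were 1.06 and 0.86 without fulvestrant and 0.03 and 0.05 with it. For PPT1 (0.48 ± 0.12, adjusted p = 0.00375) the change was -0.40 without and 0.08 with fulvestrant, and for GUSB (0.62 ± 0.14, adjusted p = 0.00282) it was -0.62 and -0.01. Neither TFEB (0.34 ± 0.36, adjusted p = 0.534) nor TFE3 (0.24 ± 0.18, adjusted p = 0.385) passed. Without fulvestrant replicate 3 TPP1 (-0.67) and NEU1 (-0.35) passed as well. SQSTM1 passed under upper-quartile factors (-0.29), with at least 10 counts in every library (-0.28) and without mitochondrial transcripts (-0.29). Of the 17 calls, 4 were lost under some alternative. LAMP1 (-0.38 ± 0.12, adjusted p = 0.0276) lost its call under library totals (-0.27) and without DMSO replicate 1, any 1 abemaciclib library, fulvestrant replicate 1 or 2, or combination replicate 2 or 3 (-0.39 to -0.29). GLB1 (-0.40 ± 0.14) lost it under DESeq2 (-0.40) and library totals (-0.29), and without DMSO replicate 1 or 2, abemaciclib replicate 2 or 3, fulvestrant replicate 2 or any 1 combination library (-0.44 to -0.31). CD63 lost it without replicate 1 of abemaciclib, fulvestrant or the combination (-0.63 to -0.60), and ARSA without DMSO replicate 1, abemaciclib replicate 2 or fulvestrant replicate 2 (-0.68 to -0.67).

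**Figure D4:**
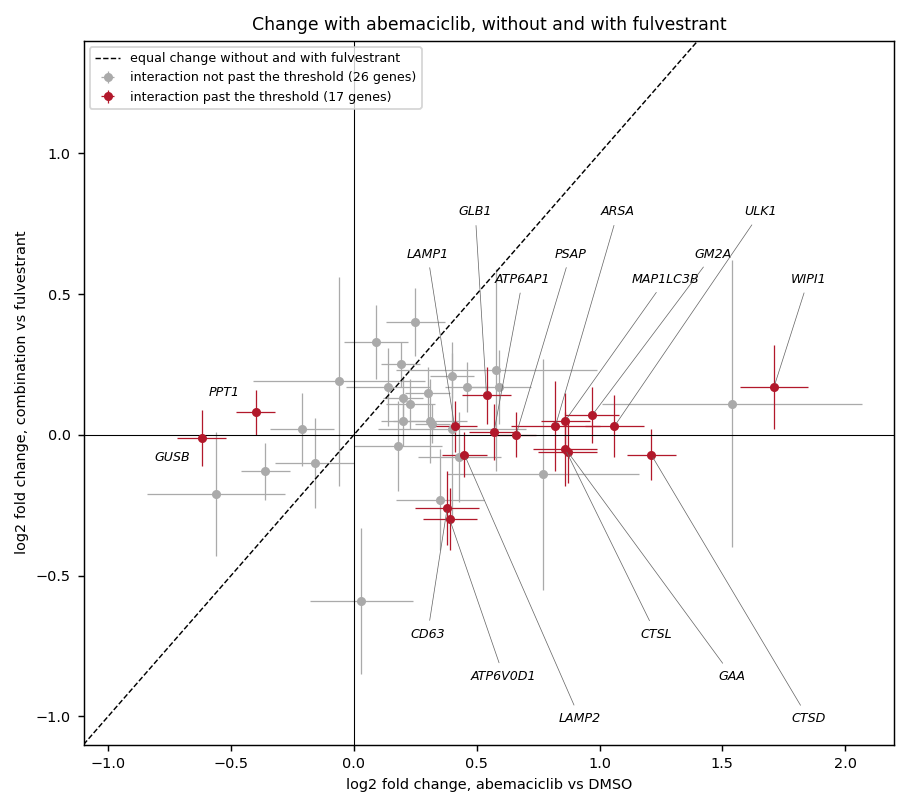
Log2 fold change with abemaciclib in the absence of fulvestrant (horizontal axis, abemaciclib vs DMSO) and in its presence (vertical axis, combination vs fulvestrant) for the 43 genes tested, with whiskers of 1 SE; the dashed line marks equal change. The 17 genes with an interaction past the threshold are red: 15 lie to the right, from 0.38 for CD63 to 1.71 for WIPI1, and between -0.30 (ATP6V0D1) and 0.17 (WIPI1) on the vertical axis, and GUSB and PPT1 lie to the left.

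A wider set of 146 genes of the same pathways, of which 131 were tested, was examined in 6 lists, to be read against the 20.5%, 25.3% and 27.7% of all genes that rose with abemaciclib, fulvestrant and both. These lists too were written with earlier results of these data known, so they are not independent support. Of 31 other lysosomal hydrolases tested, abemaciclib raised 20 (64.5%) and lowered 1 (median 0.57), fulvestrant raised 15 (48.4%) and lowered 2 (0.61), and the combination raised 17 (54.8%) and lowered 3 (0.63). CTSO, a cysteine cathepsin, had 4.75, 4.94 and 3.72 CPM in DMSO and between 15.2 and 24.5 CPM in the 9 treated libraries, with log2 fold changes of 2.07 ± 0.22, 2.14 ± 0.22 and 2.31 ± 0.21. GALC, which degrades galactosylceramide, rose by 1.42 ± 0.18, 1.54 ± 0.18 and 1.59 ± 0.18. The interaction was negative for 14 of the 31 and positive for none, with a median of -0.71, and was -1.90 ± 0.28 for CTSO and -1.37 ± 0.24 for GALC.

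Of 18 other lysosomal membrane proteins and transporters, abemaciclib raised 7 and lowered 1, fulvestrant raised 8 and lowered 3, and the combination raised 9 and lowered 2. SIDT2, a lysosomal membrane protein linked to nucleic acid uptake, rose by 1.27 ± 0.18, 1.21 ± 0.18 and 1.41 ± 0.17 in the order abemaciclib, fulvestrant and both, and TMEM106B, a regulator of lysosome transport, by 0.68 ± 0.10, 1.30 ± 0.10 and 1.31 ± 0.10. LAPTM4B fell in each treatment, from 348.7 to 369.4 CPM in DMSO to 209.3 to 227.9 with abemaciclib (-0.73 ± 0.08), 119.7 to 131.7 with fulvestrant (-1.51 ± 0.08) and 138.8 to 157.1 with both (-1.30 ± 0.08). Of the 10 other V-ATPase subunits, 3 rose and 2 fell with abemaciclib (shares near the 20.5% and 20.7% of all genes), 4 rose and 1 fell with fulvestrant, and 5 rose and 2 fell with both. ATP6V1G1 rose by 0.81, 0.85 and 1.05. ATP6V0E2 was the single gene of the wider set that differed between the combination and fulvestrant (0.36 ± 0.08, adjusted p = 0.0164).

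Genes that sort hydrolases by mannose 6-phosphate were near the background with abemaciclib, with 2 of 9 higher and 2 lower, and with fulvestrant 4 were higher and 2 lower. IGF2R, the large mannose 6-phosphate receptor, rose with abemaciclib (0.73 ± 0.15), fulvestrant (0.76 ± 0.15) and both (0.42 ± 0.15) and had an interaction of -1.06 ± 0.21, and GGA2, an adaptor of this route, fell by 0.36, 0.77 and 0.64 in the same order. For other autophagy machinery the share that rose with abemaciclib, 8 of 39 (20.5%), equalled that of all genes, while 2 fell (5.13%), with a median of 0.13. With fulvestrant 14 of the 39 rose and 1 fell (median 0.18), and with both 16 rose and 1 fell (0.24). Those that rose included the cargo receptors OPTN with abemaciclib (0.78 ± 0.11) and NBR1 with abemaciclib (0.60 ± 0.08) and fulvestrant (0.95 ± 0.08), and the tethering factor EPG5 with fulvestrant (1.24 ± 0.24).

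Among 24 regulators of mTORC1 and of the TFEB family, 7 rose (29.2%) and 3 fell with abemaciclib, 9 rose (37.5%) and 2 fell with fulvestrant, and 8 rose (33.3%, near the 27.7% of all genes) and 2 fell with both. Single members of the list follow as examples. DDIT4 and SESN2, stress-induced inhibitors of mTORC1, rose in each treatment, by 0.83, 1.76 and 1.76 for DDIT4 and by 0.69, 0.82 and 1.07 for SESN2. DDIT4 had 20.8, 24.3 and 26.3 CPM in DMSO, 47.6, 37.7 and 42.2 with abemaciclib, and 70.5 to 88.5 in the 6 libraries with fulvestrant. RHEB, the GTPase that activates mTORC1, fell in each treatment (-0.78, -0.68 and -0.78 ± 0.13). So did FNIP2, a partner of folliculin, which had 19 to 36 counts per DMSO library and 4 to 7 in the treated ones (-2.81 ± 0.39, -2.15 ± 0.36 and -2.31 ± 0.36).

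**Figure D5:**
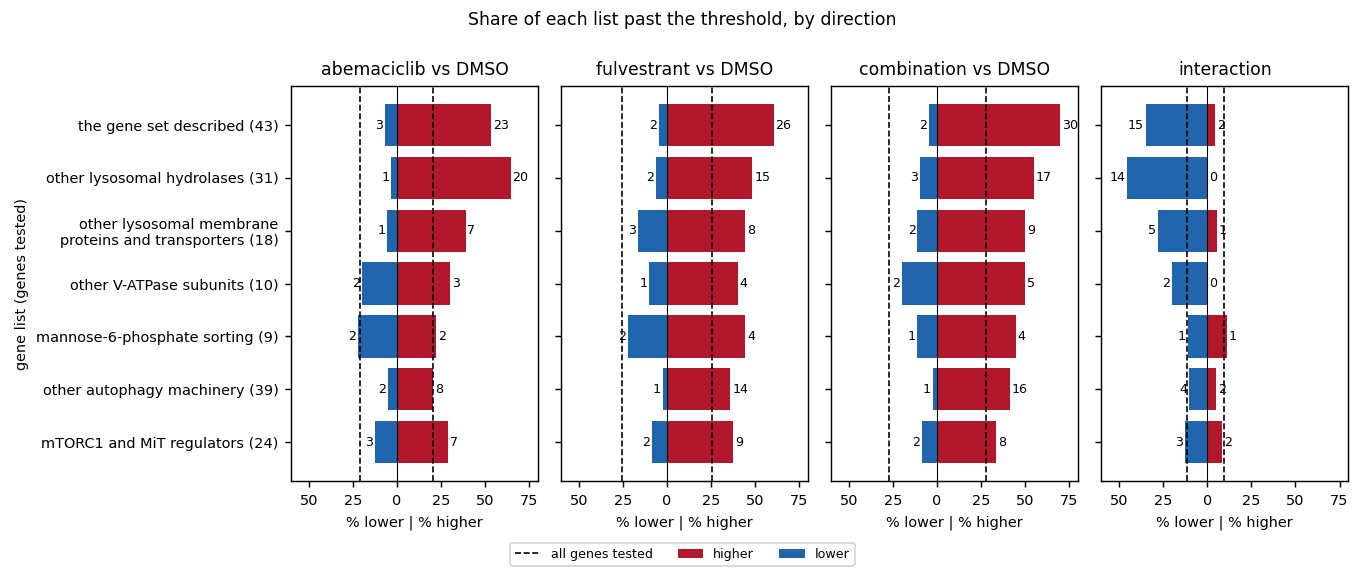
Percentage of each gene list past the threshold, higher to the right in red and lower to the left in blue, with the number of genes at the end of each bar; dashed lines give the share of all 11803 genes tested, and in the interaction panel right and left mean positive and negative. The 43 genes described here and the 31 other hydrolases exceed the dashed line on the side of higher genes in the 3 comparisons with DMSO and on the negative side of the interaction, while other autophagy machinery with abemaciclib (8 of 39) lies on it.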

How the data were processed

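RNA of 12 CAMA-1 cultures, 3 biological replicates for each of 4 treatments, was sequenced by QuantSeq FWD, which reads the 3′ end of transcripts, so counts depend little on transcript length. Per the methods of the study, the authors trimmed reads with BBDuk, aligned them to GRCh38 with STAR and made the deposited table of raw counts per gene with featureCounts (2.0.1) on GENCODE annotation; the strand setting is not given in the sources used here. Of its 60656 rows, 44 without a name held 0 reads, and 0 columns of other samples were left aside.

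Genes were tested with edgeR (4.0.16, R 4.3.3) on the counts as deposited: TMM scaling, filterByExpr by group (minimum count 10, minimum total 15), 1 mean per treatment, a robust quasi-likelihood fit of all 12 libraries, and Benjamini-Hochberg adjustment over 11803 genes. The common biological coefficient of variation was 0.0918. Every adjusted p is from this test unless DESeq2 (1.42.0), the study's own test and here an alternative, is named. Scripts were tested on simulated data. Alternatives were other scaling factors, other filters, fits of the compared groups alone, a replicate block, and each library left out. Leaving out mitochondrial transcripts was added after the data were seen. The members, pathway lists and named genes were chosen with earlier results of these data known. All 46 members were accounted for, with full statistics for the called members of largest change in each comparison and role, both transcription factors and every interaction past the threshold. Per pathway list and comparison, at most the 2 called genes of largest change at 10 CPM or more were named, with MITF and TFEC. ARSG, MAP1LC3B2 and FNIP2, and the values of named pathway genes in further comparisons, were added after their values were seen. The floor of 3 counts covers counting error only, and the 95% intervals of fold changes come from the spread between libraries.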

Additional observations from a re-analysis of the deposited data

Results flagged for a closer look

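For 17 of the 43 genes the change with abemaciclib differed between cells without and with fulvestrant by the interaction test of edgeR. Of the 43, 34.9% were negative and 4.65% positive, where 11.6% and 9.49% of all genes were. The genes with the widest differences were WIPI1 (-1.54 ± 0.21, SE, log2), CTSD (-1.28 ± 0.13) and ULK1 (-1.03 ± 0.16). GAA (-0.93 ± 0.16), CTSL (-0.91 ± 0.18), GM2A (-0.90 ± 0.15), MAP1LC3B (-0.81 ± 0.15) and ARSA (-0.79 ± 0.24) followed. The remaining negative values were ATP6V0D1 at -0.69, PSAP at -0.66, CD63 at -0.64, ATP6AP1 at -0.56, LAMP2 at -0.52, GLB1 at -0.40 and LAMP1 at -0.38. GUSB (0.62 ± 0.14) and PPT1 (0.48 ± 0.12) were positive. In the presence of fulvestrant, with all 12 libraries in the fit, no gene of the 43 passed for abemaciclib in either direction. That is near the share of all genes, of which 0.297% were higher and 1.63% lower. Without fulvestrant replicate 3 CD63, ATP6V0D1 and ATP6AP2 passed. No cause of these differences was tested.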

How the results depend on the processing

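None of the 123 called changes reversed direction under any alternative, while of the changes not called 2, 6, 4, 9, 19 and 7 changed sign under at least 1, in the order abemaciclib, fulvestrant and combination against DMSO, combination against abemaciclib and against fulvestrant, and interaction. Of the 123 calls of single genes in the 6 comparisons, DESeq2 lost 10, library totals 6, no filter on low counts 2, RLE factors 1, fitting only the groups compared 1 of 105, and upper-quartile factors, the replicate block and leaving out mitochondrial transcripts 0; leaving out 1 library lost 1 (fulvestrant replicate 3) to 11 (DMSO replicate 2). Scaling to library totals gave medians of 0.33 for abemaciclib, 0.42 for fulvestrant, 0.13 for the combination against abemaciclib, 0.08 against fulvestrant and -0.27 for the interaction, and moved the median interaction of all genes by 0.11. For the combination against DMSO, the median was 0.53 with at least 10 counts in every library and 0.54 with the other groups left out of the fit, and 1 gene was lower without the filter. The causes were not tested.

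With 1 library left out, the medians ranged from 0.34 to 0.42 for abemaciclib, 0.44 to 0.50 for fulvestrant, 0.54 to 0.61 for the combination, 0.04 to 0.12 for the combination against abemaciclib, -0.00 to 0.08 against fulvestrant and -0.41 to -0.29 for the interaction. Lower genes numbered 1 to 2 with fulvestrant and 1 to 3 with the combination, and between the combination and fulvestrant 0 to 1 were higher and 0 to 2 lower, the highest counts coming without fulvestrant replicate 3. Same-numbered libraries did not deviate together (r from -0.22 to 0.12 over 18 pairs, 5 libraries correlating best with their own number), so the numbers were not taken as pairs; with the replicate number as a block the counts were the same, with medians of 0.38, 0.49, 0.58, 0.08, 0.04 and -0.38. At these depths MCOLN1, CLN3 and GABARAP could not be tested, and changes of GABARAPL1, IDS and CTSH were poorly resolved.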
